A study of Mus musculus with 4 samples.

Results

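The genes described here are the D cyclins *Ccnd1*, *Ccnd2* and *Ccnd3*, their kinases *Cdk4* and *Cdk6*, the Cip/Kip inhibitors *Cdkn1a*, *Cdkn1b* and *Cdkn1c*, and the Ink4 inhibitors *Cdkn2c* and *Cdkn2d*. They were taken by symbol from the count tables, which held all 10 among 31053 genes, each in 1 row. RNA was counted in single cells of the proximal mouse testis at postnatal day 14, a dissection that holds the rete testis (RT), the Sertoli valve (SV) at the tubule ends and the adjacent seminiferous tubules (ST). There were 2 control and 2 *Sox17*-cKO libraries on the C57BL/6 background, each pooled from 3 pups, so pups could not be told apart within a library. *Sox17*-cKO mice carried floxed *Sox17* (*Sox17* flox/flox) and a Cre driven by *Nr5a1* (SF1) sequences, which acts across the somatic cells of the gonad. The methods describe the controls as *Sox17* flox/flox too. The sample labels give the controls the SF1Cre transgene, whereas the methods describe controls without Cre, so it is unsettled whether both genotypes share the Cre.

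Background on the pathway is as follows. D cyclins are made in response to growth signals and bind Cdk4 or Cdk6, and the active kinases phosphorylate Rb and its relatives, which frees E2F factors to switch on the genes of DNA replication. Ink4 proteins (Cdkn2c or p18, Cdkn2d or p19) bind Cdk4 and Cdk6 directly, whereas Cip/Kip proteins (Cdkn1a or p21, Cdkn1b or p27, Cdkn1c or p57) bind cyclin and kinase complexes, above all those of Cdk2. In the mouse testis, Sertoli cells divide until about the second week after birth and then leave the cell cycle, a step in which Cdkn1b has a known part, while Sertoli cells next to the RT keep an immature character for longer. Spermatogonia that begin to differentiate divide in rapid rounds before meiosis, and *Ccnd2* is known as a cyclin of spermatogonia.

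After cells with 1000 to 4500 detected genes were kept, 22567 of 46001 barcodes remained (5174 to 6135 per library, with 33649565 to 42011650 unique molecular identifiers, UMIs, each of which marks 1 captured molecule). Cells were grouped by clustering that left out the 10 genes and the cell cycle lists, and 20138 cells fell into 18 named classes. Replicate 1 and replicate 2 of both genotypes were counted with different Cell Ranger versions (6.0.2 and 6.1.2), and replicate number and processing cannot be separated. Pairs of libraries shared 20 to 43 barcodes, at most 0.391% of the smaller library. The targeted gene *Sox17* had 356 and 312 CPM, the UMIs of a gene per 1e+06 UMIs of its class, in RT-like cells of the controls and 45.2 and 34.6 CPM in those of *Sox17*-cKO. With the library as a block, p-values of class comparisons measure how far a class difference varied over these 4 libraries. Those of genotype comparisons measure the spread between libraries within a genotype.

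The SV Sertoli-like class had 410 cells (63 to 154 per library) and came from a second clustering of Sertoli-like cells. Its 8 SV marker genes summed to 492 to 634 CPM per library against 32.0 to 54.4 CPM in the 4754 tubule Sertoli-like cells, but RT-like cells (229) held more, at 1277 to 2758 CPM, so the summed list does not set the SV apart from the RT. The sub-cluster was named by its score on this same list. Its higher sum than in tubule cells, and the *Wnt4* values within that sum, are therefore no independent support for the name. *Wnt4* spanned 37.8 to 202 CPM in SV Sertoli-like and 1.11 to 2.92 CPM in tubule Sertoli-like cells, with 1.50 to 7.56 CPM in RT-like cells, whereas *Cyp26a1*, also listed as an SV marker, was no higher (7.57 to 31.7 CPM against 12.7 to 26.7 CPM). The 10 Sertoli markers summed to 14098 to 18466 CPM in SV Sertoli-like cells and to at most 3530 CPM in RT-like cells, and *Amh* was counted in every SV Sertoli-like library (14.9 to 35.7 CPM) and in no RT-like library. Immediate early and stress genes (*Cyr61*, *Cebpd*, *Atf3*) led the SV Sertoli-like cluster. A sum of 12 immediate early genes reached 5124 to 6176 CPM there, 860 to 1581 CPM in tubule Sertoli-like and 13676 to 18048 CPM in RT-like cells.

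The D cyclins divided the classes differently. *Ccnd1* ran from 7.37 CPM in Leydig-like cells to 344 CPM in *Dmrtb1*-led differentiating spermatogonia-like cells (means of 4 libraries). Over 17 classes (the 17 mesothelial-like cells were left out), its order held a single step where neighbours did not overlap in any library, which lay between SV Sertoli-like cells at 81.3 ± 30.1 CPM (SD, n = 4 libraries) and tubule Sertoli-like cells at 16.6 ± 3.39 CPM. Above the step stood both differentiating spermatogonia-like classes, macrophage-like, endothelial-like, pericyte-like, RT-like, undifferentiated spermatogonia-like, preleptotene-like and SV Sertoli-like cells. Below it stood tubule Sertoli-like, leptotene and zygotene-like, pachytene-like, myoid-like, fibroblast-like, stromal progenitor-like, cycling stromal-like and Leydig-like cells.

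*Ccnd2* was led by pericyte-like cells (604 ± 183 CPM, SD, n = 4), undifferentiated spermatogonia-like cells (481 ± 143 CPM) and stromal progenitor-like cells (438 ± 166 CPM). Its single step without overlap lay below tubule Sertoli-like cells (78.4 ± 27.6 CPM), and the 4 germ classes under it, from *Dmrtb1*-led spermatogonia-like to pachytene-like cells, averaged 8.64 to 12.1 CPM. *Ccnd3* averaged 93.9 CPM or more in Leydig-like, stromal progenitor-like, myoid-like, fibroblast-like and pericyte-like cells, and was lowest in tubule Sertoli-like cells at 2.52 ± 0.779 CPM. The tubule values did not overlap with the next class, pachytene-like cells. They did overlap with SV Sertoli-like cells (1.85 to 3.32 CPM against 1.86 to 13.7 CPM). *Cdk4* had means of 116 to 270.0 CPM in every class except *Dmrtb1*-led spermatogonia-like cells and spermatocytes (33.6 to 66.5 CPM). *Cdk6* was led by RT-like cells (130.4 ± 54.4 CPM), which overlapped the next class, macrophage-like cells (74.9 ± 16.2 CPM).

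**Figure D1:**
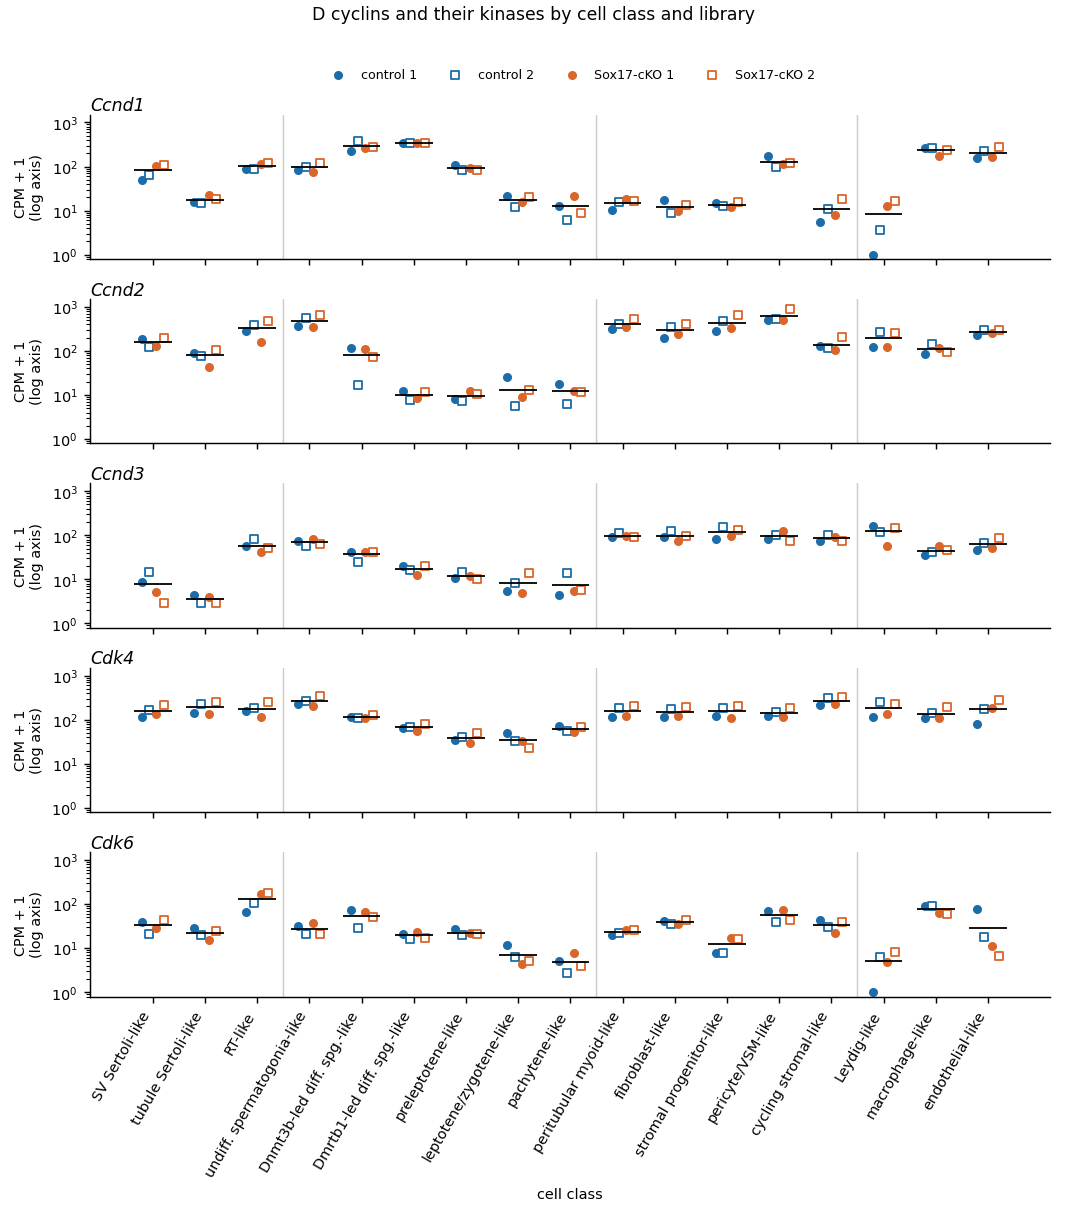
Levels of the D cyclins, Cdk4 and Cdk6 (CPM + 1, log axis) in 17 cell classes, with 1 point per library (blue for control, orange for Sox17-cKO, filled circles for replicate 1 and open squares for replicate 2) and a bar at the mean of 4 libraries. Ccnd1 stands at 81.3 CPM in SV Sertoli-like and 16.6 CPM in tubule Sertoli-like cells, Ccnd2 falls to 9.15 CPM in Dmrtb1-led spermatogonia-like cells, and Ccnd3 is lowest in tubule Sertoli-like cells.

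Among the inhibitors, *Cdkn1a* was highest in macrophage-like cells at 754 ± 227 CPM (SD, n = 4), with no overlap with the next class, SV Sertoli-like cells at 83.1 ± 40.0 CPM. *Cdkn1b* averaged 57.4 to 93.5 CPM in tubule Sertoli-like, RT-like, stromal, macrophage-like and endothelial-like cells and 2.65 to 8.12 CPM in germ cells past the undifferentiated class, though no neighbours in its order were free of overlap. *Cdkn1c* was led by stromal progenitor-like cells (103 ± 15.5 CPM) and was at 1.50 CPM in SV and 1.46 CPM in tubule Sertoli-like cells. *Cdkn2c* peaked in cycling stromal-like cells (355 ± 92.8 CPM), followed without overlap by RT-like cells (199 ± 43.7 CPM) and then preleptotene-like cells (101 ± 30.1 CPM). *Cdkn2d* was highest in cycling stromal-like cells (203 ± 27.5 CPM), tubule Sertoli-like cells (149 ± 27.3 CPM), preleptotene-like cells (123 ± 12 CPM) and SV Sertoli-like cells (114 ± 19.9 CPM), the last of which did not overlap with the class below. The cycling stromal-like cluster was itself led by genes of dividing cells (*Pclaf*, *Tk1*, *Neil3*), so its high *Cdkn2c* and *Cdkn2d* were found in stromal cells that expressed replication genes.

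**Figure D2:**
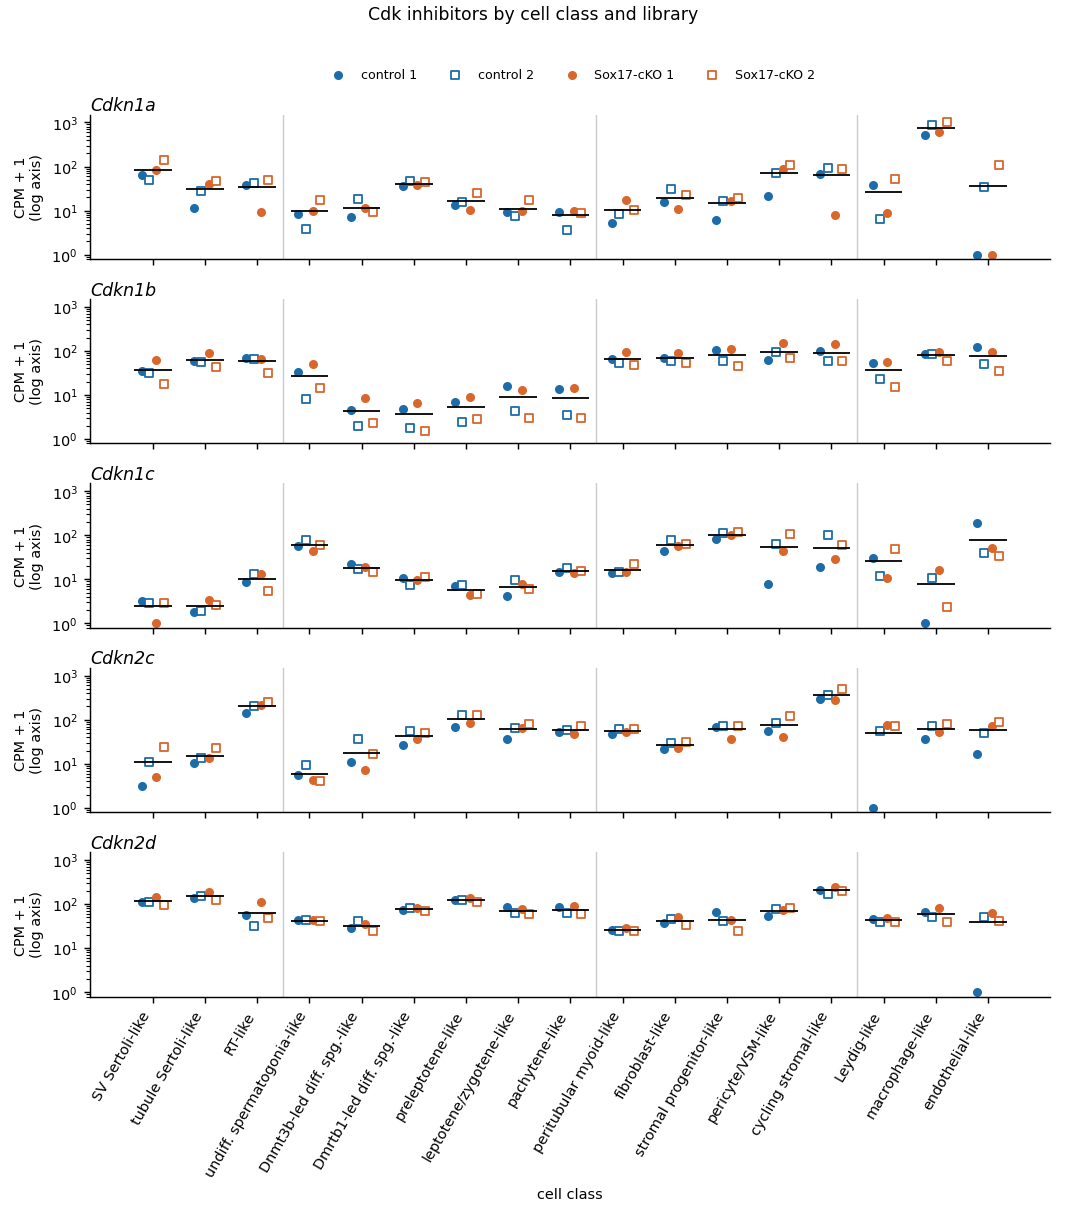
Levels of the Cip/Kip and Ink4 inhibitors (CPM + 1, log axis) in 17 cell classes, with points, colours and bars as for the cyclins. Cdkn1a peaks in macrophage-like cells at 754 CPM, Cdkn2c in cycling stromal-like cells at 355 CPM, and Cdkn1b shows open squares below filled circles in most classes.

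The first comparison asked how Sertoli cells at the valve differ from those of the tubules at the age when Sertoli cells leave the cell cycle. SV Sertoli-like cells had more *Ccnd1*, *Ccnd2*, *Ccnd3*, *Cdk6* and *Cdkn1a*, and less *Cdkn1b*, *Cdkn2d* and *Cdk4*, than tubule Sertoli-like cells. Of the 10 genes, 9 passed the filter on low counts, and 5 were higher and 3 lower at an adjusted p under 0.05. Over all 10550 genes tested 29.2% were called, 15.2% higher and 14% lower, so a call in this comparison was common. The median log2 difference of the 9 genes was 0.64, against -0.02 over all genes. That median is the value of *Cdk6* alone, with genes of opposite roles on either side, and is not a shift of the whole set. The classes were drawn from the RNA of the same cells, although without these 10 genes. The study lists *Ccnd1* among the markers of its SV cluster in these libraries, and cites an earlier report of it as an SV marker. The direction of *Ccnd1* here is therefore not independent evidence.

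*Ccnd1* was counted at 47.6 and 64.6 CPM in SV Sertoli-like cells of the controls and at 103 and 109.9 CPM in those of *Sox17*-cKO, against 14.6, 13.5, 21.1 and 17.1 CPM in tubule Sertoli-like cells of the same libraries. All 4 SV values lay above all 4 tubule values, and the log2 difference was 2.26 (SE 0.16, adjusted p = 7.1e-18). *Ccnd2* stood at 183, 123, 127 and 198 CPM in SV Sertoli-like cells and at 90.0, 76.2, 41.2 and 106 CPM in tubule Sertoli-like cells (controls first), again without overlap, with a log2 difference of 1.0 (SE 0.11, adjusted p = 2.9e-11). *Ccnd3* was near its lower limit, at 7.57, 13.7, 4.04 and 1.86 CPM from 18 UMIs in all, against 1.85 to 3.32 CPM. Its log2 difference of 1.26 (SE 0.48, adjusted p = 0.041) lost the threshold without control replicate 2 (0.71, adjusted p = 0.42) and in 5 other alternatives, among them no integration (0.67, adjusted p = 0.57) and DESeq2 (adjusted p = 0.20).

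The catalytic partners moved less. *Cdk6* was at 38.9, 19.6, 28.3 and 42.9 CPM in SV Sertoli-like cells and at 27.1, 18.5, 14.7 and 23.2 CPM in tubule Sertoli-like cells, and higher in each library. The ranges overlapped, with a log2 difference of 0.64 (SE 0.19, adjusted p = 0.0065). Without *Sox17*-cKO replicate 2 it missed the threshold (0.50, adjusted p = 0.14), as it did without integration (adjusted p = 0.084) and by DESeq2 (0.078). *Cdk4* was lower by 0.27 on the log2 scale (SE 0.10, adjusted p = 0.027), with 116 to 216 CPM against 135 to 249 CPM. It lost its call without control replicate 1 (adjusted p = 0.099), control replicate 2 (0.19) or *Sox17*-cKO replicate 2 (0.057), and in 5 other alternatives, with adjusted p of 0.12 to 0.75.

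Of the Cip/Kip inhibitors, *Cdkn1a*, a target of p53 and of stress signals, rose and *Cdkn1b* fell. *Cdkn1a* was at 62.7, 49.0, 80.8 and 139.8 CPM in SV Sertoli-like cells and at 10.5, 27.3, 39.5 and 44.9 CPM in tubule Sertoli-like cells. The ranges did not overlap, and the log2 difference was 1.56 (SE 0.16, adjusted p = 3.1e-12). In cells of low immediate early gene level, described below, it was not called (0.47, adjusted p = 0.39). *Cdkn1b* was at 34.6, 31.3, 62.6 and 16.8 CPM against 59.2, 54.9, 89.3 and 41.4 CPM, lower within every library while the ranges overlapped between libraries, and fell by 0.83 on the log2 scale (SE 0.16, adjusted p = 2.2e-05). *Cdkn1c* did not pass the filter. It had 5 UMIs in SV Sertoli-like cells, with 0 in *Sox17*-cKO replicate 1, which allows up to 6.06 CPM there (3 counts, counting error only), and 0.856 to 2.45 CPM in tubule Sertoli-like cells.

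Both Ink4 genes were listed lower, and 1 was called. *Cdkn2d* was at 109.2, 109.7, 141 and 94.1 CPM in SV Sertoli-like cells against 136, 149, 186 and 123 CPM in tubule Sertoli-like cells, lower in each library, and fell by 0.39 on the log2 scale (SE 0.10, adjusted p = 0.0016). Without cells of 2 or more proliferation core UMIs its call was lost (-0.34, adjusted p = 0.071). *Cdkn2c* was at 2.16, 9.79, 4.04 and 23.3 CPM against 9.53, 12.6, 12.9 and 21.7 CPM. Its log2 difference of -0.50 (SE 0.30, adjusted p = 0.22) was not called, but without *Sox17*-cKO replicate 2, the single library in which it was higher, it was called at -1.27 (adjusted p = 0.043).

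**Figure D3:**
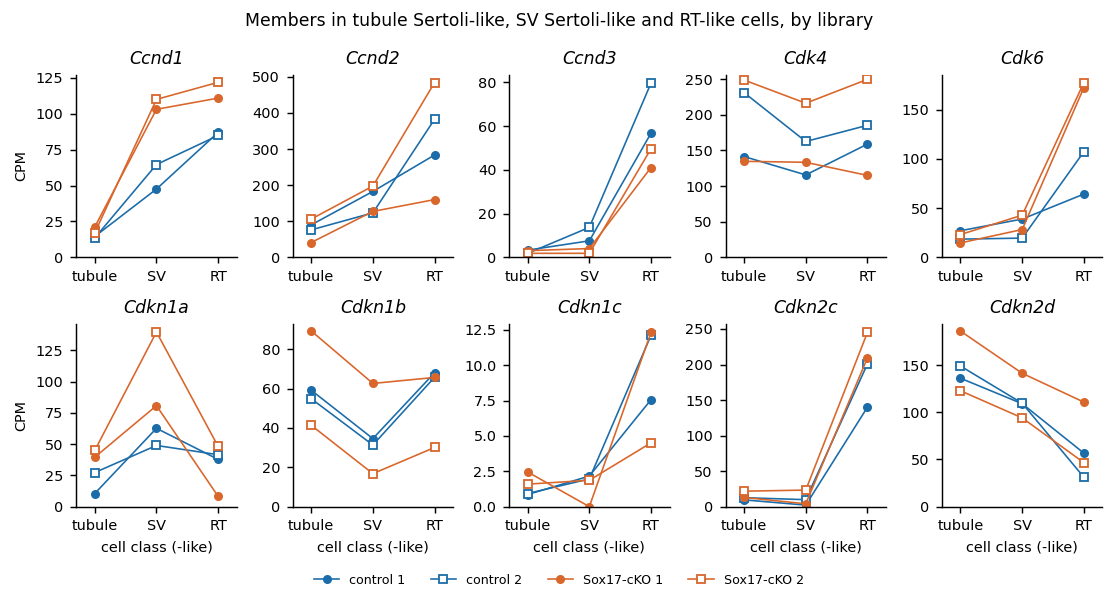
Levels (CPM) of the 10 genes in tubule Sertoli-like, SV Sertoli-like and RT-like cells, with 1 line per library. Lines rise from tubule to SV for Ccnd1 (13.5 to 21.1 CPM against 47.6 to 109.9 CPM) and fall for Cdkn1b and Cdkn2d in all 4 libraries, and Cdkn1a peaks in SV Sertoli-like cells.

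A limit on the immediate early genes that led the SV Sertoli-like cluster made some of these differences smaller and others larger. When SV and tubule Sertoli-like cells were limited to those at or under the 75th percentile of the immediate early level of tubule cells, which left 128 SV Sertoli-like cells, *Ccnd1* (1.68, adjusted p = 7.9e-05) and *Ccnd2* (0.63, adjusted p = 0.018) stayed higher, and *Cdkn1b* (-1.03, adjusted p = 0.019) and *Cdkn2d* (-0.63, adjusted p = 0.019) stayed lower. *Cdkn1a* dropped to a log2 difference of 0.47 (adjusted p = 0.39), *Cdk6* to 0.48 (adjusted p = 0.56) and *Cdk4* to -0.11 (adjusted p = 0.75). RNA of other cells was also counted in both classes. The 6 germ markers summed to 141 to 406 CPM in SV and 135 to 565 CPM in tubule Sertoli-like cells, the 7 macrophage markers to 9.79 to 20.2 CPM and 17.2 to 46.0 CPM, and the 6 fibroblast markers to 48.6 to 322 CPM and 31.5 to 209 CPM. Fibroblast-like cells had more *Ccnd2* than either class, and the part of their RNA in the *Ccnd2* values was not tested. Median mitochondrial shares were 6.84% of UMIs in SV and 10.8% in tubule Sertoli-like cells, with median depths of 7014 and 5072 UMIs per cell.

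The counts of the cell cycle lists are to be read against the 29.2% of all genes called in this comparison. Of the 10 genes of the proliferation core (*Mki67*, *Top2a* and others), none was higher and 2 were lower, *Cdk1*, the mitotic kinase (53.2 ± 13.0 CPM against 98.9 ± 10.8 CPM, SD, n = 4 libraries, adjusted p = 4.9e-07), and *Tpx2*, a spindle assembly factor (36.2 ± 18 CPM against 75.2 ± 24.7 CPM, adjusted p = 1.1e-07). In cells of low immediate early level neither was called, with log2 differences of -0.34 (SE 0.22, adjusted p = 0.37) and -0.47 (SE 0.27, adjusted p = 0.29) against -0.83 and -1.04 in all cells. Of 47 G2/M genes tested, 2 were higher and 4 lower, among them *Tubb4b* (higher by 0.43 on the log2 scale) and *Kif23* (lower by 0.74). Among 37 S phase genes, 3 were higher and 4 lower, including *Rrm1*, a subunit of ribonucleotide reductase (0.91), and *Mcm6*, of the replicative helicase (0.75), on the higher side and *Ung* (-0.87) and *Exo1* (-0.93), of DNA repair, on the lower side.

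In the wider G1 network 37 of 40 genes were tested, of which 5 were higher and 7 lower. *Myc*, which drives growth and is itself an immediate early gene, was at 34.5 ± 17.1 CPM in SV and 0.644 ± 0.381 CPM in tubule Sertoli-like cells (log2 difference 5.72, SE 0.36, adjusted p = 6.0e-20). Its relative *Mycn* went the other way (9.36 ± 5.01 CPM against 27 ± 6.36 CPM, log2 difference -1.57, adjusted p = 1.5e-06) and stayed lower in cells of low immediate early level (-1.49, adjusted p = 0.037). *Cdc25a*, the phosphatase that activates Cdk2, and *Cks2*, a Cdk-binding subunit, were lower by 0.83 and 0.56 on the log2 scale.

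Against the RT, the epithelium that drains the tubules, SV Sertoli-like cells had less *Ccnd2*, *Ccnd3*, *Cdk6*, *Cdkn1b* and *Cdkn2c* and more *Cdkn1a* and *Cdkn2d*. Of 9 genes tested, 2 were higher and 5 lower, where 48.1% of 7203 genes were called (23.1% higher and 25.0% lower). *Ccnd2* was at 284, 383, 160.1 and 484 CPM in RT-like cells, above the SV value in each library, and the SV value was lower by 1.03 on the log2 scale (SE 0.17, adjusted p = 9.0e-06). *Ccnd3* was at 41.1 to 79.6 CPM in RT-like cells, with no overlap with the SV range of 1.86 to 13.7 CPM (log2 difference -3.15, SE 0.35, adjusted p = 1.3e-08). For *Ccnd1* the log2 difference was -0.31 (SE 0.19, adjusted p = 0.17), with 84.8 to 122 CPM in RT-like cells, lower in SV in each of the 4 libraries. It was called without integration (-0.71, adjusted p = 0.022), at an upper limit of 7000 genes (-0.49, 0.020) and without cells of 2 or more proliferation core UMIs (-0.63, 0.044).

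*Cdkn2c* differed most among the 9 genes tested, with 139.9, 201, 209 and 245 CPM in RT-like cells against 2.16 to 23.3 CPM in SV Sertoli-like cells (log2 difference -4.18, SE 0.27, adjusted p = 3.3e-13). The 2 ranges did not overlap. *Cdk6*, the other partner of the D cyclins, was at 64.3, 107, 172 and 177 CPM in RT-like cells, also without overlap (-1.93, SE 0.23, adjusted p = 4.5e-08). *Cdkn2d* went the opposite way, at 56.7, 31.2, 110.8 and 46.6 CPM in RT-like cells, below the SV value in each library (1.02, SE 0.21, adjusted p = 0.0002). *Cdkn1a* was at 37.8, 41.5, 8.21 and 48.1 CPM in RT-like cells, with no overlap with the SV values (1.22, SE 0.26, adjusted p = 0.00031). *Cdkn1b* was higher in RT-like cells (68.1, 65.8, 65.7 and 30.1 CPM) by 0.72 on the log2 scale (SE 0.25, adjusted p = 0.018), a call lost without control replicate 1 (adjusted p = 0.075), control replicate 2 (0.096), integration (-0.40, 0.21) or the count filter (0.089) and by DESeq2 (0.22). The limit on the immediate early level removed SV cells but no RT-like cells, which held more of this RNA (13676 to 18048 CPM against 5124 to 6176 CPM), so it widened that gap and is no check here. Under it the log2 differences were 0.34 for *Cdkn1a* (adjusted p = 0.49), 0.71 for *Cdkn2d* (0.054) and -1.03 for *Ccnd1* (0.0059).

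RT-like cells held more RNA of the proliferation core than SV Sertoli-like cells in 3 of 4 libraries. The proliferation core summed to 639, 67.5, 1351 and 384 CPM in RT-like cells and to 246, 106, 269 and 280.5 CPM in SV Sertoli-like cells, and control replicate 2 was the exception. Of its genes, 7 were tested and 5 were lower in SV Sertoli-like cells. Of 22 G2/M genes tested 13 were lower (1 was higher), and of 20 S phase genes tested 6 were lower (none was higher). Of all genes 25.0% were lower and 23.1% higher, and the S phase share lower was near the first. The filter on low counts had left 22 of 51 G2/M and 20 of 39 S phase genes. A gene could pass it through the class where it was high, so the direction of these counts is a description. The centromere factor *Hjurp* was at 13.3 ± 9.80 CPM in SV and 73.5 ± 21.1 CPM in RT-like cells (SD, n = 4), and *Usp1* at 22.5 ± 3.86 CPM and 69.6 ± 19.3 CPM. In the G1 network 5 of 24 genes were higher in SV Sertoli-like cells, among them *Rb1*, the D cyclin kinases' main substrate (74.5 ± 15.2 CPM against 27.4 ± 14 CPM, adjusted p = 2.9e-05), and *Rbbp4*, an Rb-binding chromatin factor (log2 difference 1.22, adjusted p = 6.2e-08), and 4 were lower.

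Against the stroma (peritubular myoid-like, fibroblast-like, stromal progenitor-like and pericyte-like cells pooled, 6970 in all, without the cycling stromal-like cluster), SV Sertoli-like cells had more *Ccnd1*, *Cdkn1a* and *Cdkn2d* and less *Ccnd2*, *Ccnd3*, *Cdkn1b*, *Cdkn1c* and *Cdkn2c*. All 10 genes were tested, 3 were higher and 5 lower, where 61.8% of 11685 genes were called (28.0% higher and 33.8% lower). The pooled stroma had 262, 400.0, 295 and 519 CPM of *Ccnd2*, above the SV value in each library (log2 difference -1.43, SE 0.14, adjusted p = 2.8e-09). *Ccnd1* was at 20.9, 14.4, 20.3 and 16.4 CPM in the pooled stroma, below every SV value (1.92, SE 0.19, adjusted p = 6.4e-09). Within the pool, pericyte-like cells averaged 125 CPM, above the SV mean of 81.3 CPM. Myoid-like, fibroblast-like and stromal progenitor-like cells averaged 11.4 to 14.1 CPM. *Ccnd3* was at 86.4 to 127 CPM in the stroma, without overlap with the SV range (-4.29, SE 0.24, adjusted p = 2.1e-13).

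*Cdkn1c*, an imprinted gene, separated these cell groups as well, with 35.1, 65.1, 50.1 and 58.4 CPM in the stroma against 5 UMIs in all SV Sertoli-like cells (adjusted p = 1.5e-12). *Cdkn1b* was at 49.4 to 97.7 CPM in the stroma and lower in SV Sertoli-like cells by 1.26 on the log2 scale (SE 0.16, adjusted p = 3.6e-07). *Cdkn2c* was at 35.6, 49.2, 32.5 and 52.0 CPM, above all SV values (-2.25, SE 0.27, adjusted p = 1.1e-07). *Cdkn2d* was at 28.1 to 46.3 CPM, below all SV values (1.37, SE 0.12, adjusted p = 5.5e-10). *Cdkn1a* was at 10.6 to 21.9 CPM in the pool, also below all SV values (2.06, SE 0.20, adjusted p = 4.1e-09). Pericyte-like cells alone averaged 71.5 CPM of *Cdkn1a* and overlapped with SV Sertoli-like cells (mean 83.1 CPM). The limit on the immediate early level again removed SV cells alone, although each of the 4 stromal classes held more of this RNA (6415 CPM or more). Under it *Cdkn1a* was at 1.16, *Ccnd1* at 1.29, *Ccnd2* at -2.01 and *Ccnd3* at -5.35 on the log2 scale, all still called. The kinases were not called, with -0.22 (SE 0.11, adjusted p = 0.076) for *Cdk4* and -0.08 (SE 0.18, adjusted p = 0.73) for *Cdk6*. Within the pool *Cdk6* averaged 55.8 CPM in pericyte-like, 38.0 CPM in fibroblast-like, 22.3 CPM in myoid-like and 11.2 CPM in stromal progenitor-like cells. *Cdk4* was called under 5 alternatives. Its adjusted p was 0.013 without the count filter, 0.032 with RLE scaling and 0.044 with the cycling stromal-like cluster pooled into the stroma. It was 0.048 both at resolution 0.8 and at an upper limit of 7000 genes.

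Of 38 S phase genes 11 were lower in SV Sertoli-like cells and 4 higher, of 47 G2/M genes 9 were lower and 8 higher, and of the 10 proliferation core genes 2 went each way. Each list had a smaller share called than the 61.8% of all genes. *Gmnn*, which restrains origin licensing, was at 40.2 ± 3.33 CPM in SV Sertoli-like cells and 16.4 ± 6.00 CPM in the stroma (SD, n = 4), and *Usp1* at 22.5 ± 3.86 CPM and 51.2 ± 9.06 CPM. In the G1 network 10 of 37 genes were higher and 6 lower. Among the higher ones were *Rb1* (74.5 ± 15.2 CPM against 16.8 ± 4.03 CPM) and the Ink4 gene *Cdkn2b* (28.9 ± 10.7 CPM against 3.57 ± 1.44 CPM).

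In the germ line *Ccnd2* and *Ccnd3* were highest in undifferentiated spermatogonia-like cells and *Ccnd1* in *Dmrtb1*-led ones. Undifferentiated spermatogonia-like cells (756) had 369, 552, 357 and 648 CPM of *Ccnd2*, the *Dnmt3b*-led differentiating class (1037 cells) 116, 15.5, 109.9 and 73.4 CPM, and the *Dmrtb1*-led class (2478 cells) 6.73 to 11.6 CPM. *Ccnd1* took the opposite course, from 82.6, 97.3, 76.1 and 122 CPM in undifferentiated to 224, 384, 256 and 273 CPM in *Dnmt3b*-led and 348, 349, 347 and 332 CPM in *Dmrtb1*-led cells. It then fell to 80.5 to 106 CPM in preleptotene-like cells (997), 11.0 to 20.8 CPM in leptotene and zygotene-like cells (714) and 5.21 to 21.0 CPM in pachytene-like cells (983). *Ccnd3* declined along the whole course, from 68.6 ± 11.9 CPM (SD, n = 4) in undifferentiated cells through 36.3 ± 8.77, 16.2 ± 3.62, 10.9 ± 1.84 and 7.18 ± 4.20 CPM to 6.43 ± 4.44 CPM in pachytene-like cells.

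Differentiating spermatogonia-like cells (both classes pooled) differed from undifferentiated ones in 9 of the 10 genes, 4 higher and 5 lower, where 64.3% of 11977 genes were called (32.0% higher and 32.2% lower). *Ccnd1* was higher in all 4 libraries (log2 difference 1.69, SE 0.10, adjusted p = 6.5e-10). *Ccnd2* (-4.05, SE 0.29, adjusted p = 7.3e-09) and *Ccnd3* (-1.77, SE 0.13, adjusted p = 1.4e-08) were lower in all 4. *Cdk4* fell from 223, 264, 205 and 346 CPM to 81.9, 74.9, 68.4 and 93.6 CPM (-1.78, SE 0.09, adjusted p = 1.1e-10), with no overlap. *Cdk6* was not called (0.01, SE 0.14, adjusted p = 0.98), and within the pool it was at 53.5 ± 19.6 CPM in *Dnmt3b*-led and 18.4 ± 3.51 CPM in *Dmrtb1*-led cells.

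In the differentiating pool both Ink4 genes were higher and the Cip/Kip genes went different ways. *Cdkn1b* (-3.27, SE 0.21, adjusted p = 1.9e-09) and *Cdkn1c* (-2.43, SE 0.17, adjusted p = 7.7e-09) were lower in differentiating cells, whereas *Cdkn1a* (1.60, SE 0.21, adjusted p = 7.3e-06), *Cdkn2c* (2.59, SE 0.22, adjusted p = 4.9e-08) and *Cdkn2d* (0.49, SE 0.11, adjusted p = 0.0009) were higher. *Cdkn1c* went from 43.8 to 76.2 CPM to 8.18 to 13.7 CPM without overlap, and *Cdkn2c* from 3.16 to 8.46 CPM to 20.4 to 51.7 CPM, also without overlap. *Cdkn1b* was low in both groups in replicate 2 of either genotype, at 32.4, 7.05, 48.9 and 13.4 CPM in undifferentiated and 3.76, 0.802, 6.02 and 0.759 CPM in differentiating cells. For *Cdkn2d* the higher values of the pool came from *Dmrtb1*-led cells (mean 76.7 CPM). *Dnmt3b*-led cells averaged less (31.1 CPM) than undifferentiated ones (41.3 CPM). *Cdkn1a* averaged 8.92 CPM in undifferentiated, 10.5 CPM in *Dnmt3b*-led and 40.1 CPM in *Dmrtb1*-led cells.

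In differentiating cells 10 of 10 proliferation core genes, 42 of 51 G2/M genes (5 were lower) and 32 of 39 S phase genes (3 were lower) were higher, where 32.0% of all genes were higher. *Mki67* rose from 51.8 ± 18.1 CPM to 286 ± 103 CPM (SD, n = 4 libraries, adjusted p = 2.2e-11), and *Rrm2* from 13.6 ± 1.90 CPM to 72.5 ± 9.93 CPM. In the G1 network 17 of 39 genes were higher and 6 lower, and *Ccne2*, the cyclin that acts after the D cyclins, rose from 19.2 ± 3.37 CPM to 132 ± 12.2 CPM (adjusted p = 2.4e-11), while *E2f2* rose from 1.35 ± 0.920 CPM to 33.9 ± 12.1 CPM (adjusted p = 7.1e-09).

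Entry into meiosis was compared with preleptotene-like, leptotene and zygotene-like and pachytene-like cells pooled (2694) against differentiating spermatogonia-like cells (3515). Of the 10 genes 6 were lower and 3 higher in spermatocytes, where 72.3% of 11890 genes were called (35.6% higher and 36.7% lower). All 3 D cyclins were lower in every library, *Ccnd1* from 304, 355, 323 and 315 CPM to 39.0, 39.4, 47.9 and 45.5 CPM (log2 difference -2.91, SE 0.09, adjusted p = 3.7e-09), *Ccnd2* by 1.41 (SE 0.18, adjusted p = 3.2e-05) and *Ccnd3* by 1.43 (SE 0.24, adjusted p = 0.00029) on the log2 scale. For *Ccnd2* the higher values of the pool came from *Dnmt3b*-led cells, and *Dmrtb1*-led cells (6.73 to 11.6 CPM) already overlapped with the pooled spermatocytes (5.51 to 16.4 CPM). Both kinases fell too, *Cdk4* by 0.83 (SE 0.10, adjusted p = 2.3e-05) and *Cdk6* by 1.34 (SE 0.17, adjusted p = 3.6e-05).

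The Ink4 inhibitors were higher in the spermatocyte pool. *Cdkn2c* stood at 51.0, 89.5, 67.1 and 97.3 CPM against 20.4, 51.7, 27.8 and 39.1 CPM (1.18, SE 0.11, adjusted p = 3.9e-06), and *Cdkn2d* at 95.4, 87.6, 104 and 82.3 CPM against 56.9, 74.9, 69.8 and 56.4 CPM (0.54, SE 0.10, adjusted p = 0.00045), higher in each library. Within the spermatocytes both were highest in preleptotene-like cells (101 ± 30.1 CPM of *Cdkn2c* and 123 ± 12 CPM of *Cdkn2d*), the class that carries out premeiotic DNA replication. *Cdkn2d* averaged 70.4 CPM in leptotene and zygotene-like and 74.3 CPM in pachytene-like cells. These means were no higher than the 76.7 CPM of *Dmrtb1*-led spermatogonia-like cells, though above the 31.1 CPM of *Dnmt3b*-led ones. *Cdkn1a* was lower by 1.54 (SE 0.18, adjusted p = 2.0e-05). *Cdkn1b* was higher by 1.28 (SE 0.25, adjusted p = 0.00078), at 1.91 to 11.5 CPM against 0.759 to 6.02 CPM. That call was lost at an upper limit of 7000 genes per cell (0.71, adjusted p = 0.055). Its counts were low, with 21 and 28 UMIs in the whole germ pool of control replicate 2 and *Sox17*-cKO replicate 2. The part of somatic RNA in these values was not tested. *Cdkn1c* was not called (-0.42, SE 0.20, adjusted p = 0.081), but was called under 4 alternatives, with -0.64 (adjusted p = 0.013) without control replicate 2 and -1.05 (adjusted p = 0.00032) with the 10 genes and lists kept in clustering.

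The lists held genes called both ways at this step, with 8 of 51 G2/M genes higher and 32 lower, 10 of 39 S phase genes higher and 18 lower, and 12 of 39 G1 network genes higher and 17 lower. Of all genes 35.6% were higher and 36.7% lower. *Aurkb*, a mitotic kinase, fell from 79.8 ± 2.90 CPM to 6.29 ± 1.95 CPM (SD, n = 4), and *Mcm2* from 178 ± 10.4 CPM to 43.3 ± 9.05 CPM, whereas *Lin9*, of the DREAM complex, rose from 24.3 ± 4.64 CPM to 82.8 ± 10.8 CPM.

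**Figure D4:**
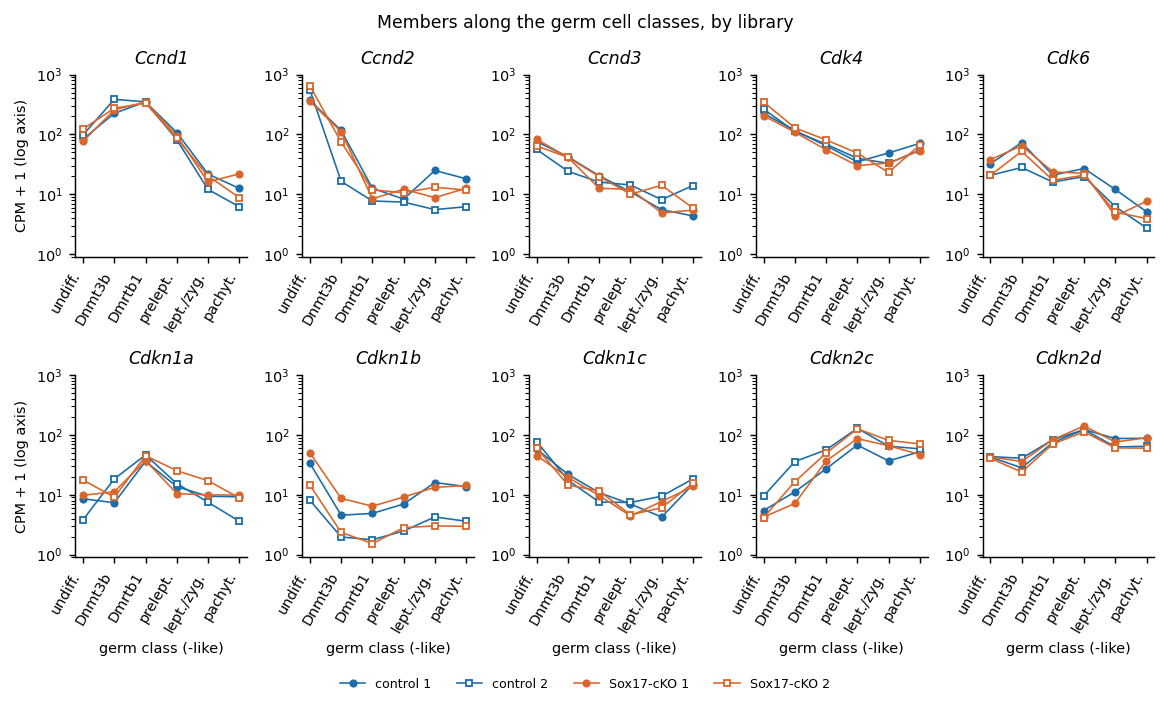
Levels (CPM + 1, log axis) of the 10 genes along 6 germ classes in the order undifferentiated, Dnmt3b-led and Dmrtb1-led differentiating spermatogonia-like, preleptotene-like, leptotene and zygotene-like and pachytene-like cells, with 1 line per library. Ccnd2 falls from 481 CPM to 9.15 CPM before meiosis while Ccnd1 rises from 94.6 CPM to 344 CPM, and the Cdkn1b lines separate by replicate number.

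*Cdkn1b* separated by replicate number. Both replicate 2 libraries lay below both replicate 1 libraries in 15 of 17 classes, and in the pooled germ cells the values were 11.9 and 13.9 CPM in replicate 1 against 1.80 and 2.74 CPM in replicate 2 (control and *Sox17*-cKO). Of all genes tested in the pooled germ cells, 36.1% also lay lower without overlap in replicate 2 and 26.0% higher, so such a split was common in that pool. How many of all genes split alike over as many as 15 classes was not counted. *Cdk4* was higher in both replicate 2 libraries in 13 of 17 classes and *Cdkn2c* in 11, and *Cdkn2d* was lower in both in 9. The replicate number coincides with the Cell Ranger version and with any other difference between the 2 rounds of libraries, which cannot be told apart. Comparisons between classes were made within libraries.

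The last question was whether loss of *Sox17* in the RT lineage went with a change in these genes. None of the 10 genes was called in SV Sertoli-like, tubule Sertoli-like, RT-like, germ-like or stromal-like cells by edgeR, where 7, 10, 9, 10 and 10 of them were tested, and none by DESeq2. The background was as low, with 0.0% of all genes called in SV Sertoli-like, tubule Sertoli-like, germ-like and stromal-like cells and 0.132% (9 of 6806, 0.0147% higher and 0.118% lower) in RT-like cells. At an unadjusted p under 0.05 edgeR listed 2 of the genes in SV Sertoli-like cells, 1 in tubule Sertoli-like, 1 in RT-like and 0 in germ-like and stromal-like cells. The share of all genes under that unadjusted level is not given here, and the shares above are for adjusted p. These counts are therefore no result about the 10 genes. In data simulated at the depth and average spread of these comparisons, 2-fold changes were recovered in 5.32% to 17.8% of cases and 4-fold changes in 62.4% to 73.4%. The changed genes were drawn at random from all genes tested, without the deviation that same-numbered libraries share. Most 2-fold changes were thus missed there, and the rate for these 10 genes was not measured.

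*Cdkn1a* was higher in both *Sox17*-cKO libraries than in both controls in 7 of 17 classes and lower than both in 0. *Cdkn2c* was higher than both in 5 and lower in 1, and such counts over classes were not made for all genes. *Ccnd1* was higher than both in 5 classes and lower than both in 2 (*Dmrtb1*-led and macrophage-like cells), all taken from the same 4 libraries. In SV Sertoli-like cells it was at 47.6 and 64.6 CPM against 103 and 109.9 CPM (log2 difference 0.90, SE 0.33, unadjusted p = 0.018 and adjusted p = 1.0 by edgeR, and -0.15 in cells clustered without integration), in tubule Sertoli-like cells at 14.6 and 13.5 CPM against 21.1 and 17.1 CPM (0.31, SE 0.30), and in RT-like cells at 87.0 and 84.8 CPM against 110.8 and 122 CPM (0.41, SE 0.31). In SV Sertoli-like cells 14.5% of all genes tested lay higher without overlap in *Sox17*-cKO and 9.65% lower, in tubule Sertoli-like cells 18.1% (also *Cdkn1c* and *Cdkn2c*) against 4.29% lower and in RT-like cells 18%. In SV Sertoli-like cells *Ccnd3* (7.57 and 13.7 CPM against 4.04 and 1.86 CPM, 18 UMIs in all) and *Cdkn1c* (5 UMIs in all) lay lower in *Sox17*-cKO without overlap, but both were below the count filter and outside those shares. *Cdkn1a* was at 62.7 and 49.0 CPM against 80.8 and 139.8 CPM in SV Sertoli-like cells (0.95, SE 0.36, unadjusted p = 0.018 by edgeR). Within replicate numbers its log2 ratios were 0.36 and 1.49, and the difference ranged from 0.07 without integration to 1.81 over the alternatives, with 0.46 without *Sox17*-cKO replicate 2.

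In tubule Sertoli-like cells *Cdkn1a* was at 10.5 and 27.3 CPM in controls and at 39.5 and 44.9 CPM in *Sox17*-cKO (log2 difference 1.02, SE 0.44, adjusted p = 1.0 by edgeR). Within replicate numbers the log2 ratios of CPM + 1 were 1.82 and 0.70. A tubule sub-cluster of 224 cells held 218 from *Sox17*-cKO replicate 2, and without it the difference was 0.92. With the replicate number, and so the Cell Ranger version, as a term in the fit, it was called (1.16, adjusted p = 0.0012), the single gene of the 10 so called there. That fit called 0.441% of all genes, 0.153% higher. Without the term, its log2 difference was 0.45 without control replicate 1 and 1.93 without control replicate 2. In RT-like cells *Cdk6* was at 64.3 and 107 CPM against 172 and 177 CPM (0.95, SE 0.33, adjusted p = 0.66), with ratios of 1.41 and 0.72 within replicate numbers, and was called with that term (0.92, adjusted p = 0.017). The fit with that term called 4.04% of all genes there, 1.98% higher. The proliferation core in RT-like cells was also uneven, with 639 and 67.5 CPM in controls and 1351 and 384 CPM in *Sox17*-cKO, and its part in the *Cdk6* values was not tested. The replicate 1 values came from 36 control and 34 *Sox17*-cKO cells. By protein staining at the same age, the study found KI67-positive shares of RT epithelium that were similar in both genotypes.

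*Cdkn2c* in RT-like cells was at 139.9 and 201 CPM against 209 and 245 CPM (0.37, SE 0.30), while *Ccnd3* (56.7 and 79.6 CPM against 41.1 and 49.6 CPM) and *Cdkn1b* (68.1 and 65.8 CPM against 65.7 and 30.1 CPM) lay lower in *Sox17*-cKO without overlap, where 15.4% of all genes tested did so. In the germ and stromal pools all 10 genes overlapped between genotypes, where 7.06% and 13.3% of all genes lay higher without overlap and 4.59% and 5.11% lower, and the log2 differences spanned -0.23 to 0.22 in germ-like cells (SE 0.24 to 0.89) and -0.29 to 0.23 in stromal-like cells (SE 0.22 to 0.37). The germ pool mixed stages in different shares, with 66 to 387 undifferentiated spermatogonia-like cells per library.

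**Figure D5:**
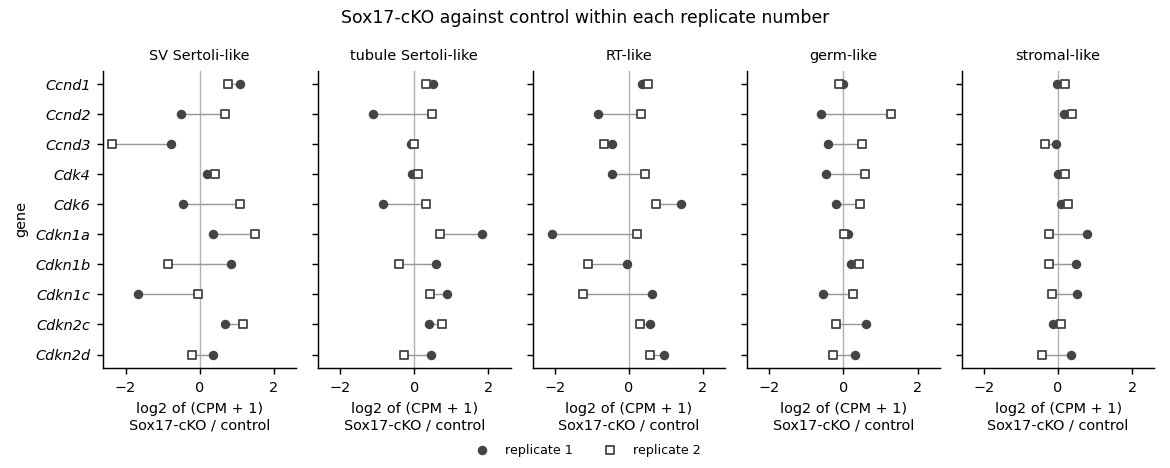
Log2 ratio of CPM + 1 in Sox17-cKO over control for the 10 genes in 5 cell classes, with a filled circle for replicate 1 and an open square for replicate 2, joined by a line. Cdkn1a in tubule Sertoli-like cells (1.82 and 0.70) and Cdk6 in RT-like cells (1.41 and 0.72) lie to the right of 0 in both, and in germ-like and stromal-like cells most lines cross or touch 0.

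Genes whose mean levels followed the D cyclins over the 17 classes were sought among 9699 genes of at least 10 CPM. The nearest to *Ccnd1* was *Lmo1*, a LIM-domain regulator (Pearson r = 0.91 of log2 (CPM + 1) over 17 class means), followed by *Smagp* and *Arrdc1* (0.86 and 0.85). For *Ccnd2* these were *Rilpl1*, *Kazn* and *Rsu1* (0.92, 0.91 and 0.91), for *Ccnd3* *Eva1b*, *Rpl36a-ps1* and *Rpl24*, the last 2 a ribosomal protein pseudogene and gene (0.97, 0.93 and 0.93), for *Cdkn1b* *Mbnl2*, *Pold4* and *Ddx3x* (0.97, 0.96 and 0.96), and for *Cdkn1c* *Ntan1*, *Slc30a7* and *Camk2n1* (0.88, 0.87 and 0.87). The class means share the same 4 libraries and their free RNA, so these values are a description.

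In GENCODE vM21 on GRCm38, which mm10 denotes, all 10 are protein-coding genes. The D cyclin genes lie at chromosome 7, 144929931 to 144939925 (*Ccnd1*, minus strand), chromosome 6, 127125162 to 127152193 (*Ccnd2*, minus) and chromosome 17, 47505051 to 47599691 (*Ccnd3*, plus). *Cdkn1b* (chromosome 6, 134920401 to 134925513, plus), *Cdkn2c* (chromosome 4, 109660876 to 109667189, minus) and *Cdkn2d* (chromosome 9, 21288410 to 21291407, minus) overlap no other annotated gene. *Cdk4* (chromosome 10, 127063534 to 127067920, plus), *Cdk6* (chromosome 5, 3341485 to 3531008, plus), *Cdkn1a* (chromosome 17, 29090976 to 29100727, plus), *Cdkn1c* (chromosome 7, 143458339 to 143461050, minus) and the D cyclin genes overlap a gene on the opposite strand, such as *Tspan31* at *Cdk4* and *Bysl* at *Ccnd3*, and none of the 10 overlaps a gene on its own strand.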

How the data were processed

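The authors deposited UMI counts per gene and barcode, made with Cell Ranger (6.0.2 for control 1 and *Sox17*-cKO 1, 6.1.2 for control 2 and *Sox17*-cKO 2, per the submitters' processing notes) against mm10, after cell calling and without normalization. The labels give version 3 of the 10x Genomics 3' kit and the methods version 3.1. The genes and lists were chosen with earlier results of these data known.

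Cells with 1000 to 4500 genes were kept. A limit of 1% on mitochondrial UMIs, given in the methods, would have left 212 cells and was dropped. Counts were integrated over libraries and clustered with Seurat 5.3.0 (2000 variable genes, 20 components, resolution 0.4), with the 10 genes and the cell cycle lists left out of the variable genes. Clusters were named from marker lists, as "X-like". Those with a median mitochondrial share above 20% and a Sertoli sub-cluster mixed with germ cell RNA stayed unnamed (2429 cells in all). No SV cluster formed at first, so Sertoli-like cells were clustered again, a departure chosen after the counts were seen. Scrublet, run through Scanpy 1.11.5 and Python 3.11.15, called 8, 208, 0 and 330 barcodes as doublets, which is too few to trust in the first and the third library, and none were removed.

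UMIs were summed per class and library. CPM used all UMIs of the class. Classes were compared with edgeR 4.0.16 in R 4.3.3 (TMM, filterByExpr, quasi-likelihood F test, Benjamini-Hochberg over all genes tested, threshold 0.05, two-sided) with the library as a block, and genotypes as 2 against 2 libraries. The study's Wilcoxon tests over cells were replaced by these sums, since cells are not replicates. SEs are the log2 difference over the square root of F. The smallest SV Sertoli-like sum was 494911 UMIs, where 1 UMI is 2.02 CPM. On simulated counts with 200 changed genes, the steps recovered 79.0% to 89.5% of them between classes and 32.0% to 43.5% between genotypes, with 1 to 12 false calls and 0 of the wrong sign.

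Named were all 10 genes, up to 4 genes per list and class comparison with the smallest adjusted p and the same direction in all libraries, and the 3 genes most alike in pattern. The leading genes of the SV and cycling stromal clusters were picked with their values in view. Alternatives were at most 10% mitochondrial UMIs, the top Scrublet scores removed, the genes kept in clustering, no integration, resolution 0.8, an upper limit of 7000 genes, no cells with 2 or more proliferation core UMIs, no count filter, RLE scaling, DESeq2 1.42.0, each library left out, tubule cells of at least 2000 genes and the replicate number as a block. Added after the data were seen were pooling the Sertoli cluster of high mitochondrial share, leaving out a tubule sub-cluster of 224 cells nearly all from 1 library, the limit on immediate early genes (in Sertoli-like cells alone), and pooling the cycling stromal cluster into the stroma. A pair of matrices that pool the libraries was not used here.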

Additional observations from a re-analysis of the deposited data

How the results depend on the processing

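Across the alternatives, 1399 values of the 10 genes stayed on the same side of the threshold. Another 28 lost a call and 16 gained one, and none that was called changed direction. These values include the genotype comparisons, where none of the 10 genes was called as reported and no call could be lost. In SV against tubule Sertoli-like cells *Cdk4* kept its call in 10 of 18 alternatives and *Ccnd3* in 6 of 12. In SV against tubule Sertoli-like cells 8 genes were called, but 5 without integration, 5 by DESeq2 and 4 in cells of low immediate early level, an alternative chosen after seeing the data. Calls over all genes in each of those settings are not given here. In differentiating against undifferentiated spermatogonia-like cells 9 were called, but 3 without cells of 2 or more proliferation core UMIs, where 3 were tested. The same alternative could not be fitted for spermatocytes, since it left a library without cells. With each library left out in turn, 6 to 8 of the 10 genes were called in SV against tubule Sertoli-like cells, where 2465 to 2827 of all genes were. Against RT-like cells 6 to 7 were called (2852 to 3515 of all genes) and against the stroma 8 to 8 (6318 to 6946). Between spermatogonia-like groups 9 to 9 were called (6603 to 8010 of all genes) and at entry into meiosis 9 to 10 (7653 to 8624). Across all the alternatives, calls over all genes ranged from 1331 to 4065 in SV against tubule Sertoli-like cells (3076 as reported). They ranged from 487 to 10417 between spermatogonia-like groups (7698), and from 4 to 275 between genotypes in RT-like cells (9). The causes were not tested.

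Same-numbered libraries of the 2 genotypes deviated together (r = 0.364 in SV Sertoli-like, 0.487 in tubule Sertoli-like, 0.358 in RT-like, 0.564 in germ-like and 0.580 in stromal-like cells, across genes), but there are 2 pairs and the labels do not say what a number marks. With the replicate block 1 of the 10 genes was called in tubule Sertoli-like cells and 1 in RT-like cells, against 0 and 0 without it, and 0 in the other classes. Over all genes the block called 52 of 11790 in tubule Sertoli-like and 275 of 6806 in RT-like cells, against 0 and 9 without it. The 1 UMI step of 2.02 CPM in the smallest SV library limits *Ccnd3*, *Cdkn1c* and *Cdkn2c*.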
